A study of Mus musculus with 12 samples.

Results

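The Schlafen and Ifitm families were followed across 4 dendritic cell populations of the inflamed mouse lung. The 9 genes were Slfn1, Slfn2, Slfn3, Slfn4 and Slfn5 of the Schlafen family and Ifitm1, Ifitm2, Ifitm3 and Ifitm6 of the Ifitm family, of 18194 genes that the platform annotation names through a probe set of their own. A probe set was taken where the annotation gives it exactly 1 symbol. Where a gene had several, its probe set was chosen by the highest mean signal over all 12 arrays. That choice used no difference between populations, and it mattered for Slfn1, whose probe sets had means of 2432 and 4.89, and for Slfn5, with means of 3542, 2343 and 305. All 9 genes passed the filter on low signals, which asked for a signal above the array median on at least 3 arrays, and were among 10929 genes tested.

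Male C57BL/6J mice, 8 to 12 weeks old, had received 100 ng of lipopolysaccharide, a bacterial cell wall component, and 100 ug of ovalbumin, a foreign protein, into the airways in 50 ul, and lung cells were sorted 16 h later. The populations were CD11bhi Ly6Chi inflammatory monocyte-derived dendritic cells (Ly6Chi moDC), CD11bhi CD14hi monocyte-derived dendritic cells (CD14hi moDC), CD11bhi CD14lo conventional dendritic cells (CD14lo cDC) and CD103+ conventional dendritic cells (CD103+ cDC). Each had 3 arrays, each made from the sorted cells of 20 pooled mice at a stated purity above 93%, and this number of arrays limits the precision. All 4 populations came from treated mice, so the values compare populations and do not show a response to lipopolysaccharide.

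Schlafen genes were named for the growth arrest that the founding member causes when it is forced on in mouse T cells, and several are switched on by type I interferon. Slfn2 keeps T cells and monocytes in a resting state, and its loss in mice leads to immunodeficiency. Ifitm genes encode small interferon-induced membrane proteins. Ifitm3 sits in endosomes and hinders enveloped viruses such as influenza virus from fusing there, Ifitm2 is also mainly endosomal, and Ifitm1 acts nearer the cell surface.

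In the genome the Schlafen genes lie together on mouse chromosome 11, in the order Slfn5, Slfn9, Slfn8, Slfn10-ps, Slfn2, Slfn1, Slfn4 and Slfn3, and the Ifitm genes on chromosome 7, in the order Ifitm5, Ifitm2, Ifitm1, Ifitm3 and Ifitm6. The promoters of 6 genes are shown, in pairs that had the same highest or lowest population. Slfn4 and Slfn1 were highest in Ly6Chi moDC, Ifitm6 and Ifitm1 were highest in CD14lo cDC, and Ifitm2 and Ifitm3 were lowest in CD103+ cDC. Each sequence is from RefSeq on GRCm38.p6, runs 5′ to 3′ on the strand of the gene, and covers 250 bases before the start of transcription and 50 after it. All 9 genes matched an entry. Capitals mark matches to 1 of 4 motifs that were searched on both strands, namely GAAA repeated with any 2 bases between the copies (like the interferon-stimulated response element), TTCNNNGAA (like the interferon-gamma activated site), GGGA and TTTCC with any 1 base between them (like an NF-kB site) and GAGGAAGT (like a PU.1 site).
Slfn4 (chr11:83174936-83175235, plus strand): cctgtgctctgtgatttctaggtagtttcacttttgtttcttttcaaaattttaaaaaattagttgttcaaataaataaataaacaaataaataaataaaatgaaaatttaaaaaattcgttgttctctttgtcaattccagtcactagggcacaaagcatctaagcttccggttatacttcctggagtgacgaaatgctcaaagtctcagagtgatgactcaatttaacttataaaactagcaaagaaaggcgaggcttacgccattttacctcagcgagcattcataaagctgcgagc
Slfn1 (chr11:83116570-83116869, plus strand): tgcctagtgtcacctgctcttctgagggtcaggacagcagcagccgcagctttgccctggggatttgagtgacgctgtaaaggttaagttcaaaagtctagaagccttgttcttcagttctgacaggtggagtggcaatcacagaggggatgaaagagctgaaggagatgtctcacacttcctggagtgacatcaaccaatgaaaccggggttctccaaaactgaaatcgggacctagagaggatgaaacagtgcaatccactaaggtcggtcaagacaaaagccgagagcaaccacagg
Ifitm6 (chr7:141016843-141017142, minus strand): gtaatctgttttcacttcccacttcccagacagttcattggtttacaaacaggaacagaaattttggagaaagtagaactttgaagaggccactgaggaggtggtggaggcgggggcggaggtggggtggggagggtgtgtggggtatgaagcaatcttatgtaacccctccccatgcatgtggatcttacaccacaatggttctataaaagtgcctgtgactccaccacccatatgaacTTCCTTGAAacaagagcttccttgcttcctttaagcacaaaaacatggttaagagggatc
Ifitm1 (chr7:140967826-140968125, plus strand): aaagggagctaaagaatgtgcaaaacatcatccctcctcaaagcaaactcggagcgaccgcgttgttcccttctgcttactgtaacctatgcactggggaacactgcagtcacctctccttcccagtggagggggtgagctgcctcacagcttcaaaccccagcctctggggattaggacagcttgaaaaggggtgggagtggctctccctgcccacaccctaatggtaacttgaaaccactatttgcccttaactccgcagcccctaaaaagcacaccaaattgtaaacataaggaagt
Ifitm2 (chr7:140955912-140956211, minus strand): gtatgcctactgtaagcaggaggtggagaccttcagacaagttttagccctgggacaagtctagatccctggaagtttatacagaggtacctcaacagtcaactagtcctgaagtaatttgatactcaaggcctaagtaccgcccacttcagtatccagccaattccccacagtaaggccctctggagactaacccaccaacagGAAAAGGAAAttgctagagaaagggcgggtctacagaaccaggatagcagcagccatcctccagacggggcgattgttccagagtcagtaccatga
Ifitm3 (chr7:141010695-141010994, minus strand): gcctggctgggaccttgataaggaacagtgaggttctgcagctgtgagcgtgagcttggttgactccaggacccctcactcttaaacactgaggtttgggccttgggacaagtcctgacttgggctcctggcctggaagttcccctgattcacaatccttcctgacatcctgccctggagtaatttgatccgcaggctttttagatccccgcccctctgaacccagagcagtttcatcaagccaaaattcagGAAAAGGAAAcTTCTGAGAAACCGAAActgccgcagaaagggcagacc

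The response element motif matched in 3 of the 9 promoters, against 3.44% of 32851 promoters in the table. It matched in Ifitm2 at bases -46 to -37, in Ifitm3 at bases 3 to 12 and 20 to 29, and in Slfn5, whose promoter is not printed, at bases -155 to -146, counted from the first transcribed base as 1. The activated site motif matched in 2 of the 9, in Ifitm3 at bases 14 to 22 and in Ifitm6 at bases -10 to -2, against 8.3% of all promoters. In Ifitm3 the second response element match and the activated site match share 3 bases, which stand in 1 run of capitals. The NF-kB and PU.1 motifs matched in 0 of the 9 promoters, and in 0.411% and 3.2% of all promoters. A match describes letters and is not evidence of a bound site.

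Values are MAS5 signals in arbitrary units, listed for replicates 1, 2 and 3 or averaged over 3 arrays with their SD. Log2 differences are the first population named minus the second, each with its SE from a limma model over all 12 arrays. A small constant was added to each signal before taking log2, which makes the folds of dim genes too small. The word called is used where p, adjusted by Benjamini-Hochberg over all genes tested, was under 0.05. The genes that defined the sorts followed their labels. A probe set shared by Ly6c1 and Ly6c2 averaged 10452 ± 662 in Ly6Chi moDC, 217 ± 142 in CD14hi moDC, 692 ± 417 in CD14lo cDC and 227 ± 90.7 in CD103+ cDC (SD, n = 3). Mean Cd14 signal was 10836 in Ly6Chi moDC, 11669 in CD14hi moDC, 1537 in CD14lo cDC and 968 in CD103+ cDC, and Itgae, which encodes CD103, averaged 86.5, 140, 855 and 15178 in the same order. Summed conventional dendritic cell markers (5 of 5 measured) were 957 to 1252 in Ly6Chi moDC, 4164 to 5953 in CD14hi moDC, 13149 to 13605 in CD14lo cDC and 24888 to 26408 in CD103+ cDC. Arrays of 1 population correlated across genes, which are not independent replicates, at 0.973 to 0.983.

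Of the 9 genes, 3 were called between Ly6Chi moDC and CD14hi moDC, all higher in Ly6Chi moDC, beside 18.2% of all genes called (6.82% higher, 11.4% lower). Against CD14lo cDC, 4 were called in Ly6Chi moDC, 2 higher and 2 lower, beside 25.2% of all genes (11.2% higher, 14% lower). Against CD103+ cDC, 6 were called in Ly6Chi moDC, all higher, beside 47.5% of all genes (24.3% higher, 23.2% lower). In CD14hi moDC, 3 were called against CD14lo cDC, all lower, beside 16.2% of all genes (9.24% higher, 6.95% lower). In the same cells 6 were called against CD103+ cDC, 4 higher and 2 lower, beside 37.2% of all genes (20.3% higher, 16.9% lower). In CD14lo cDC, 5 were called against CD103+ cDC, all higher, beside 28.7% of all genes (15.3% higher, 13.4% lower). These comparisons share populations and are not independent of each other.

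**Figure D1:**
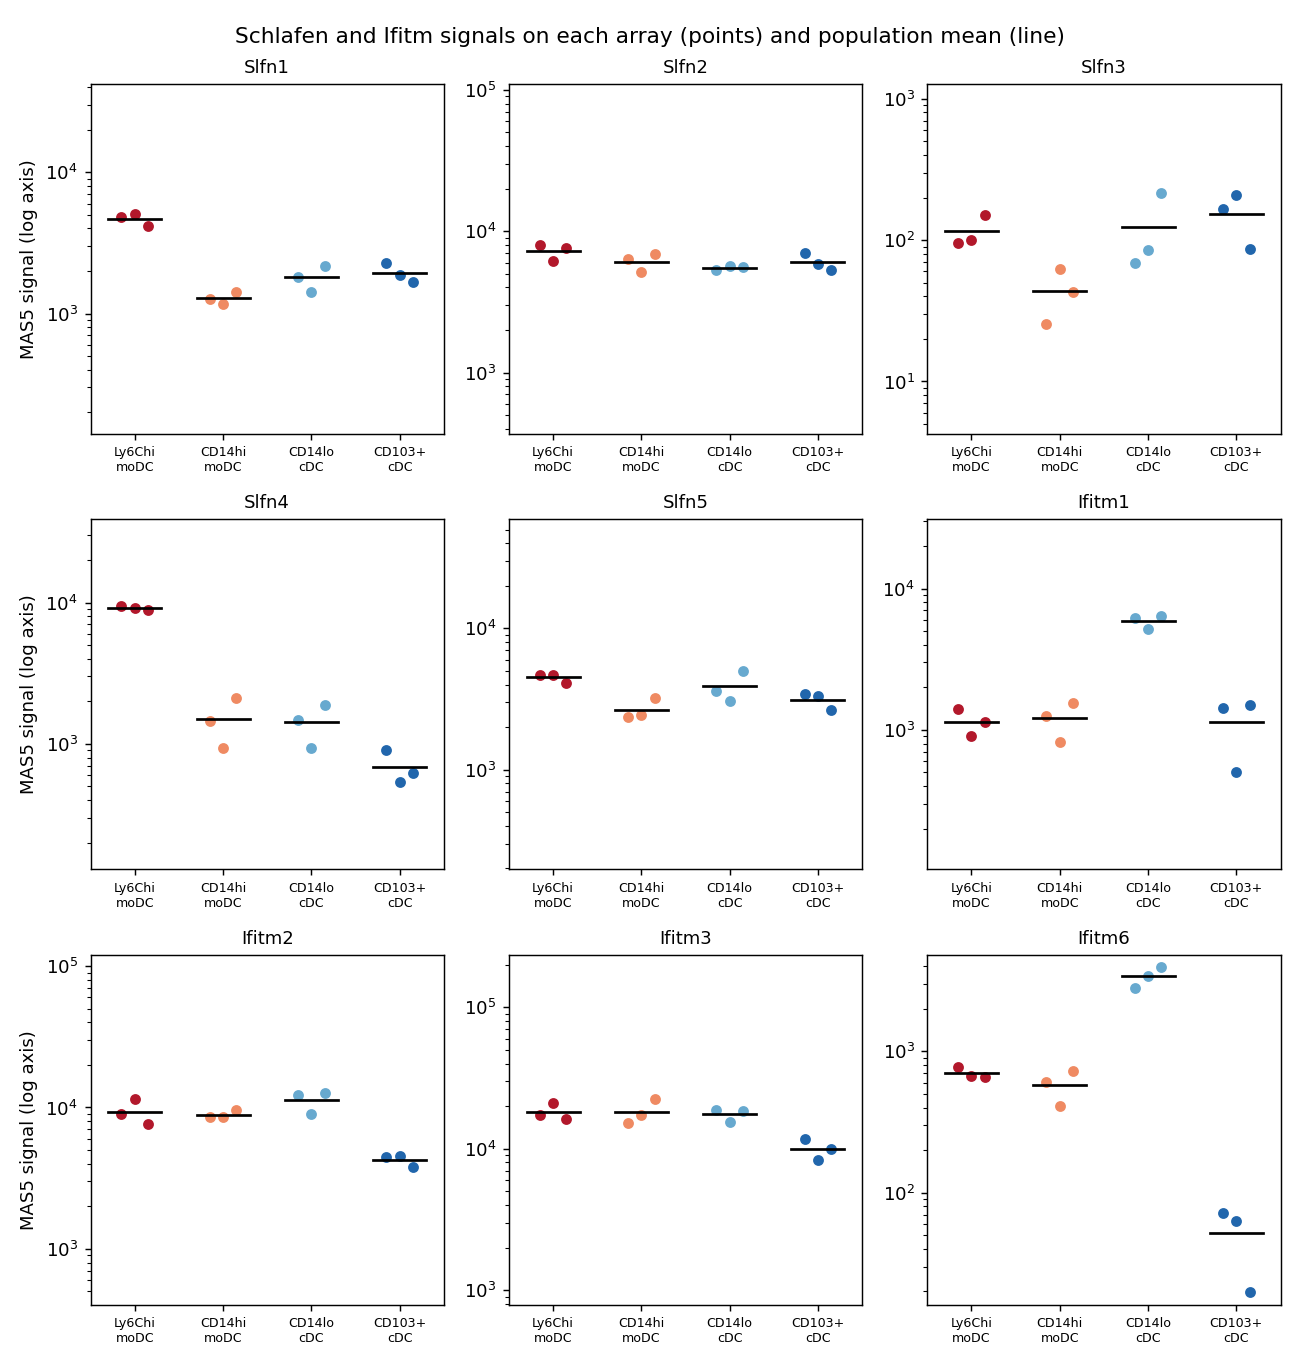
Points are the MAS5 signals (arbitrary units, log axis) of the 9 genes on each of 3 arrays per population, and lines are population means. Every panel spans a 300-fold range around its own values, so distances can be compared between panels but heights cannot. Slfn4 and Slfn1 stand highest in Ly6Chi moDC, Ifitm1 and Ifitm6 in CD14lo cDC, and Ifitm2 and Ifitm3 stand lowest in CD103+ cDC.

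Slfn4, which is expressed in monocytes and macrophages and is induced when mouse macrophages are activated, set Ly6Chi moDC apart from the other 3 populations. Its signals were 9453, 9109 and 8795 in Ly6Chi moDC, 1446, 942 and 2113 in CD14hi moDC, 1466, 941 and 1878 in CD14lo cDC, and 909, 534 and 619 in CD103+ cDC. Every Ly6Chi moDC array was above every array of the other populations. The difference was 2.64 ± 0.26 against CD14hi moDC (6.21-fold, adjusted p = 5.0e-07), 2.69 ± 0.26 against CD14lo cDC (6.43-fold, adjusted p = 2.4e-07) and 3.67 ± 0.26 against CD103+ cDC (12.7-fold, adjusted p = 9.7e-10). In a population of sorted cells, fewer cells that express a gene and less RNA per cell cannot be told apart. Slfn4 was also 2.05-fold higher in CD14hi moDC than in CD103+ cDC (adjusted p = 0.0037) and 1.98-fold higher in CD14lo cDC than in CD103+ cDC (adjusted p = 0.0071). CD14hi moDC and CD14lo cDC differed by 0.05 ± 0.26, with overlapping arrays.

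A probe set that the annotation assigns to Slfn4 and Slfn3 together gave a second reading. It averaged 1882 ± 159 in Ly6Chi moDC, 234 ± 68.8 in CD14hi moDC, 252 ± 92.7 in CD14lo cDC and 217 ± 40.7 in CD103+ cDC (SD, n = 3). The excess in Ly6Chi moDC was present there too, 6.93-fold over CD14hi moDC, 6.57-fold over CD14lo cDC and 7.29-fold over CD103+ cDC, each called with adjusted p up to 3.2e-08. The smaller differences of Slfn4 from CD103+ cDC were not. They were 0.07 ± 0.23 for CD14hi moDC minus CD103+ cDC (adjusted p = 0.84) and 0.15 ± 0.23 for CD14lo cDC minus CD103+ cDC (adjusted p = 0.70) on the shared probe set. The call of Slfn4 between CD14lo cDC and CD103+ cDC was also lost without replicate 3 of CD14lo cDC (0.77, adjusted p = 0.0505).

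Slfn1, the founding member, had the same leading population with a smaller span. Its signals were 4812, 5104 and 4139 in Ly6Chi moDC, 1275, 1171 and 1411 in CD14hi moDC, 1828, 1421 and 2175 in CD14lo cDC, and 2296, 1871 and 1684 in CD103+ cDC. The 3 Ly6Chi moDC arrays were again above the other 9. The difference was 1.82 ± 0.16 against CD14hi moDC (3.54-fold, adjusted p = 2.0e-07), 1.36 ± 0.16 against CD14lo cDC (2.58-fold, adjusted p = 4.0e-06) and 1.25 ± 0.16 against CD103+ cDC (2.38-fold, adjusted p = 4.5e-06). The lower end differed from that of Slfn4. CD14hi moDC had the least Slfn1, 1.49-fold below CD103+ cDC (adjusted p = 0.0099, or 0.054 without replicate 1 of CD103+ cDC), while its difference from CD14lo cDC was -0.46 ± 0.16 and not called (adjusted p = 0.068). CD14lo cDC and CD103+ cDC differed by -0.12 ± 0.16 (adjusted p = 0.65). The second Slfn1 probe set never exceeded a signal of 12.8 or its array median, so it gave no check.

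Slfn1 and Slfn4 were the only members called higher in Ly6Chi moDC than in each other population, a pattern held by 371 of all genes tested, or 3.39%. Summed marker signals of neutrophils and classical monocytes were also highest in Ly6Chi moDC, though not for every neutrophil marker. Summed signals of 9 of 11 listed neutrophil markers were 4559 to 4758 in Ly6Chi moDC, 1336 to 2619 in CD14hi moDC, 1064 to 1396 in CD14lo cDC and 480 to 2124 in CD103+ cDC. Among them the granule genes Ngp and Ltf and the chemokine receptor gene Cxcr2 were below the array median on all 12 arrays, and Lcn2 averaged 333 in Ly6Chi moDC and 393 in CD14hi moDC. Summed signals of 4 of 7 listed classical monocyte markers were 21052 to 25241 in Ly6Chi moDC, 7053 to 9253 in CD14hi moDC, 12103 to 15607 in CD14lo cDC and 3665 to 4901 in CD103+ cDC. The part of either cell type in the Slfn1 and Slfn4 differences was not tested.

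**Figure D2:**
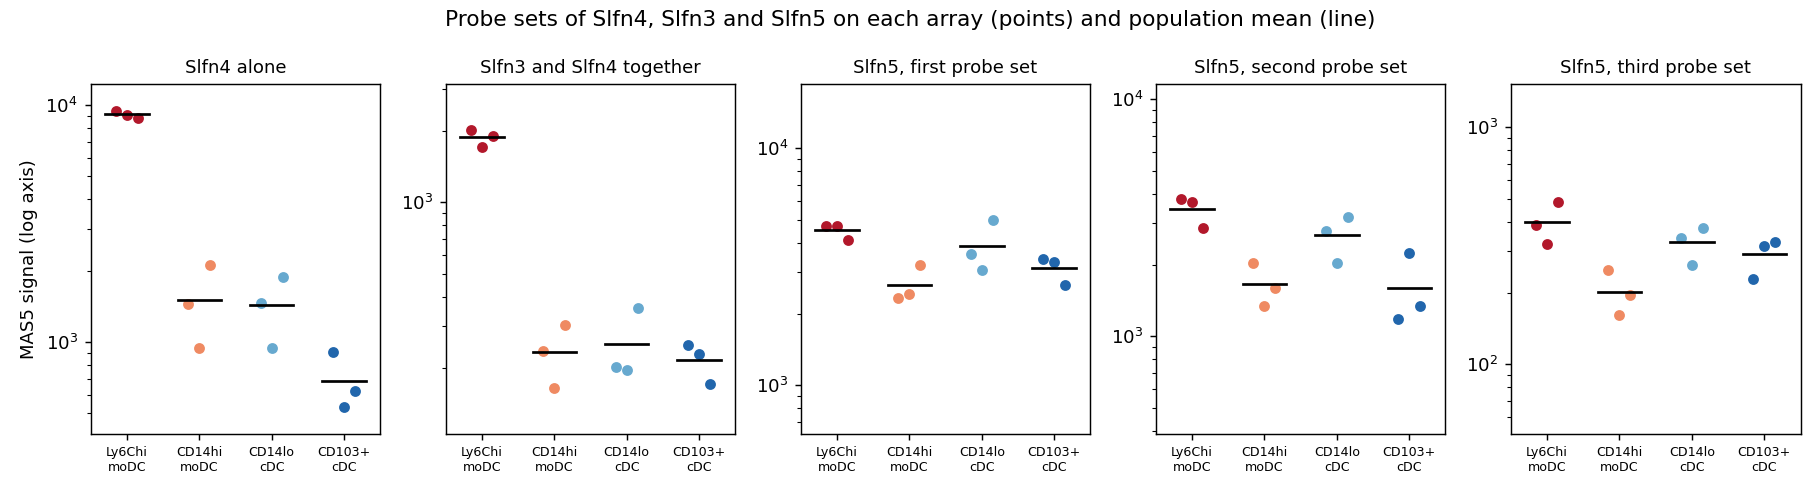
Points are MAS5 signals (arbitrary units, log axis, each panel spanning a 30-fold range) on each of 3 arrays per population for the Slfn4 probe set, the probe set shared by Slfn3 and Slfn4, and the 3 probe sets of Slfn5, with lines at the population means. The Slfn4 probe set and the shared probe set are highest in Ly6Chi moDC, and all 3 Slfn5 readings are higher in Ly6Chi moDC than in CD14hi moDC.

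Slfn5, a longer family member with a helicase-like part, varied less. Its signals were 4709, 4706 and 4100 in Ly6Chi moDC, 2345, 2426 and 3210 in CD14hi moDC, 3593, 3060 and 4988 in CD14lo cDC, and 3410, 3315 and 2642 in CD103+ cDC. Ly6Chi moDC arrays lay above those of CD14hi moDC and of CD103+ cDC but overlapped with CD14lo cDC. The difference was 0.76 ± 0.17 against CD14hi moDC (1.69-fold, adjusted p = 0.0040) and 0.53 ± 0.17 against CD103+ cDC (1.44-fold, adjusted p = 0.017), and 0.24 ± 0.17 against CD14lo cDC was not called (adjusted p = 0.37). The first of these held on all 3 Slfn5 probe sets, with differences of 1.04 ± 0.22 (adjusted p = 0.0021) and 0.82 ± 0.21 (adjusted p = 0.011) on the other 2. The difference from CD103+ cDC was called on the second probe set (1.13 ± 0.22, adjusted p = 0.00029) and not on the third (0.39 ± 0.21, adjusted p = 0.16). It lost its call without replicate 3 of CD103+ cDC (0.41, adjusted p = 0.085) and without replicate 1 or 2 of Ly6Chi moDC (adjusted p = 0.057 and 0.054).

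Slfn5 was also called between CD14hi moDC and CD14lo cDC, at -0.52 ± 0.17 (1.43-fold lower in CD14hi moDC, adjusted p = 0.047) although the arrays of the 2 populations overlapped. The call was not stable. Without replicate 3 of CD14lo cDC the difference was -0.33 (adjusted p = 0.27), and neither of the other Slfn5 probe sets passed the threshold (-0.67 ± 0.22, adjusted p = 0.0502, and -0.58 ± 0.21, adjusted p = 0.087).

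Slfn2, the regulator of immune cell quiescence, was the most even of the 9. Its signals were 7987, 6167 and 7558 in Ly6Chi moDC, 6346, 5113 and 6853 in CD14hi moDC, 5303, 5662 and 5614 in CD14lo cDC, and 6962, 5830 and 5344 in CD103+ cDC. The populations overlapped in 5 of 6 pairs, and no pair was called. The widest difference, 0.38 ± 0.14 for Ly6Chi moDC minus CD14lo cDC, had an adjusted p of 0.059 and was called under some other settings (adjusted p = 0.037 with each array centred on its median). Of all genes tested, 40% were called in none of the 6 pairs.

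Slfn3, linked in mice and rats to T cell quiescence and gut epithelial differentiation, was dim, and exceeded the array median on 6 of 12 arrays. Its signals were 95.4, 100.3 and 151 in Ly6Chi moDC, 25.4, 62.6 and 42.8 in CD14hi moDC, 68.9, 85.2 and 215 in CD14lo cDC, and 167, 207 and 87.1 in CD103+ cDC. No CD14hi moDC array exceeded its array median. The 1 pair called was CD14hi moDC minus CD103+ cDC, at -1.09 ± 0.30 (lower in CD14hi moDC, adjusted p = 0.0082). Its size followed the added constant, at -1.59 with a smaller and -0.53 with a larger one, and it was called with both. Ly6Chi moDC minus CD14hi moDC was 0.83 ± 0.30 (adjusted p = 0.068) and CD14hi moDC minus CD14lo cDC was -0.81 ± 0.30 (adjusted p = 0.082), with arrays apart in both pairs. The probe set shared with Slfn4 was highest in Ly6Chi moDC instead, and its signal cannot be divided between the genes.

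Ifitm6, an Ifitm gene whose function is less well described, had the widest span of the 9. Its signals were 769, 670 and 656 in Ly6Chi moDC, 603, 413 and 729 in CD14hi moDC, 2809, 3389 and 3943 in CD14lo cDC, and 71.8, 62.7 and 19.7 in CD103+ cDC. The lowest CD14lo cDC array was above all moDC arrays, and the lowest moDC array was above all CD103+ cDC arrays, none of which exceeded its array median. Ifitm6 was 4.55-fold lower in Ly6Chi moDC than in CD14lo cDC (-2.19 ± 0.23, adjusted p = 6.2e-07) and 5.50-fold lower in CD14hi moDC than in CD14lo cDC (-2.46 ± 0.23, adjusted p = 3.7e-07). It was higher in Ly6Chi moDC (2.92 ± 0.23, adjusted p = 3.8e-09) and in CD14hi moDC (2.65 ± 0.23, adjusted p = 2.8e-08) than in CD103+ cDC. The moDC populations differed from each other by 0.27 ± 0.23 and were not called apart (adjusted p = 0.47). The contrast within the conventional cells, CD14lo cDC minus CD103+ cDC, was 5.11 ± 0.23 (adjusted p = 1.8e-11). CD103+ cDC signals were near the added constant, and the sizes of all 3 differences from CD103+ cDC followed it. With a smaller and a larger constant they were 3.65 and 1.84 for Ly6Chi moDC, 3.36 and 1.62 for CD14hi moDC, and 5.90 and 3.83 for CD14lo cDC, and all stayed called.

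Ifitm1 shared the leading population of Ifitm6 but not its low end. Its signals were 1401, 902 and 1136 in Ly6Chi moDC, 1264, 823 and 1550 in CD14hi moDC, 6171, 5203 and 6368 in CD14lo cDC, and 1418, 503 and 1498 in CD103+ cDC. CD14lo cDC arrays were above all others, and the other 3 populations overlapped. Ifitm1 was 5.04-fold lower in Ly6Chi moDC than in CD14lo cDC (-2.33 ± 0.30, adjusted p = 8.9e-06), 4.85-fold lower in CD14hi moDC than in CD14lo cDC (-2.28 ± 0.30, adjusted p = 2.4e-05), and 5.51-fold higher in CD14lo cDC than in CD103+ cDC (2.46 ± 0.30, adjusted p = 5.0e-06). Differences among the other 3 ran from -0.05 to 0.18, each with an SE of 0.30, and were not called.

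Ifitm1 and Ifitm6 were the only members called higher in CD14lo cDC than in each other population, a pattern of 147 genes tested, or 1.35%. Endothelial markers, 4 of 4 measured, summed to 526 to 994 in Ly6Chi moDC, 225 to 568 in CD14hi moDC, 690 to 1159 in CD14lo cDC and 200 to 311 in CD103+ cDC. The sums of Ly6Chi moDC and CD14lo cDC overlapped. Cldn5 was below the array median on all 12 arrays, and Cdh5 averaged 157 in Ly6Chi moDC and 61.9 in CD14lo cDC. Of 3 endothelial markers tested between these 2 populations, 1 was called higher and 0 lower in Ly6Chi moDC. Fibroblast markers, 6 of 6 measured, summed to 2806 to 4449 in Ly6Chi moDC, 4660 to 5503 in CD14hi moDC, 1387 to 1778 in CD14lo cDC and 1657 to 2149 in CD103+ cDC. The part of these cells in the Ifitm1 and Ifitm6 differences was not tested. Summed markers of CD11b+ dendritic cells, 5 of 5 measured, were also highest in CD14lo cDC, though not for every marker. The sums were 13388 to 14773 in Ly6Chi moDC and 14062 to 17735 in CD14hi moDC. They were 23163 to 23942 in CD14lo cDC and 1020 to 1992 in CD103+ cDC. Irf4, Cd209a and Clec10a were highest in CD14lo cDC. Itgam averaged 2188 in Ly6Chi moDC, 1481 in CD14hi moDC and 1115 in CD14lo cDC, and Sirpa 9922, 9856 and 7260.

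Ifitm2 and Ifitm3, the endosomal members, were lowest in CD103+ cDC, and no difference among the other 3 populations was called in the signals as deposited. Ifitm2 signals were 9004, 11406 and 7681 in Ly6Chi moDC, 8540, 8618 and 9594 in CD14hi moDC, 12187, 8984 and 12686 in CD14lo cDC, and 4442, 4511 and 3822 in CD103+ cDC. Ifitm3 signals were 17278, 21106 and 16334 in Ly6Chi moDC, 15240, 17395 and 22408 in CD14hi moDC, 18930, 15558 and 18483 in CD14lo cDC, and 11704, 8312 and 10015 in CD103+ cDC. For both genes, all CD103+ cDC arrays were below the other 9, and the other 3 populations overlapped.

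Ifitm2 was 2.16-fold higher in Ly6Chi moDC (1.11 ± 0.15, adjusted p = 8.0e-06), 2.08-fold higher in CD14hi moDC (1.06 ± 0.15, adjusted p = 2.2e-05) and 2.61-fold higher in CD14lo cDC (1.38 ± 0.15, adjusted p = 1.6e-06), each against CD103+ cDC. Ifitm3 was 1.82-fold higher in Ly6Chi moDC (0.87 ± 0.15, adjusted p = 0.00014), 1.82-fold higher in CD14hi moDC (0.87 ± 0.15, adjusted p = 0.00021) and 1.77-fold higher in CD14lo cDC (0.82 ± 0.15, adjusted p = 0.0005), again against CD103+ cDC. Among Ly6Chi moDC, CD14hi moDC and CD14lo cDC, the Ifitm3 differences ran from 0.00 to 0.04, each with an SE of 0.15. Those of Ifitm2 ran from -0.32 to 0.05 with the same SE, and none was called (adjusted p from 0.18 to 0.86 for Ifitm2 and from 0.88 to 0.996 for Ifitm3). With quantile normalization Ifitm2 was called lower than in CD14lo cDC in Ly6Chi moDC (-0.36, adjusted p = 0.049) and in CD14hi moDC (-0.44, adjusted p = 0.025), and Ifitm3 higher in Ly6Chi moDC than in CD14hi moDC (0.24, adjusted p = 0.046).

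Genes called lower in CD103+ cDC than in each other population numbered 1087, or 9.95% of those tested, and Slfn4, Ifitm2, Ifitm3 and Ifitm6 were among them. RNA integrity was read from the ratio of 3' to 5' control probe sets for Gapdh, which is higher in more degraded RNA. The ratio was 2.74 ± 0.91 in CD103+ cDC (SD, n = 3), where arrays ran from 1.68 to 3.27, and its mean was between 1.66 and 1.85 in the other populations. Lung epithelium markers, 6 of 6 measured, summed to 2089 to 2907 in Ly6Chi moDC, 2683 to 3685 in CD14hi moDC, 1715 to 4238 in CD14lo cDC and 4515 to 8701 in CD103+ cDC, with Cldn18 below the array median on all 12 arrays. The part of RNA integrity or of epithelial RNA in the lower Schlafen and Ifitm signals of CD103+ cDC was not tested.

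**Figure D3:**
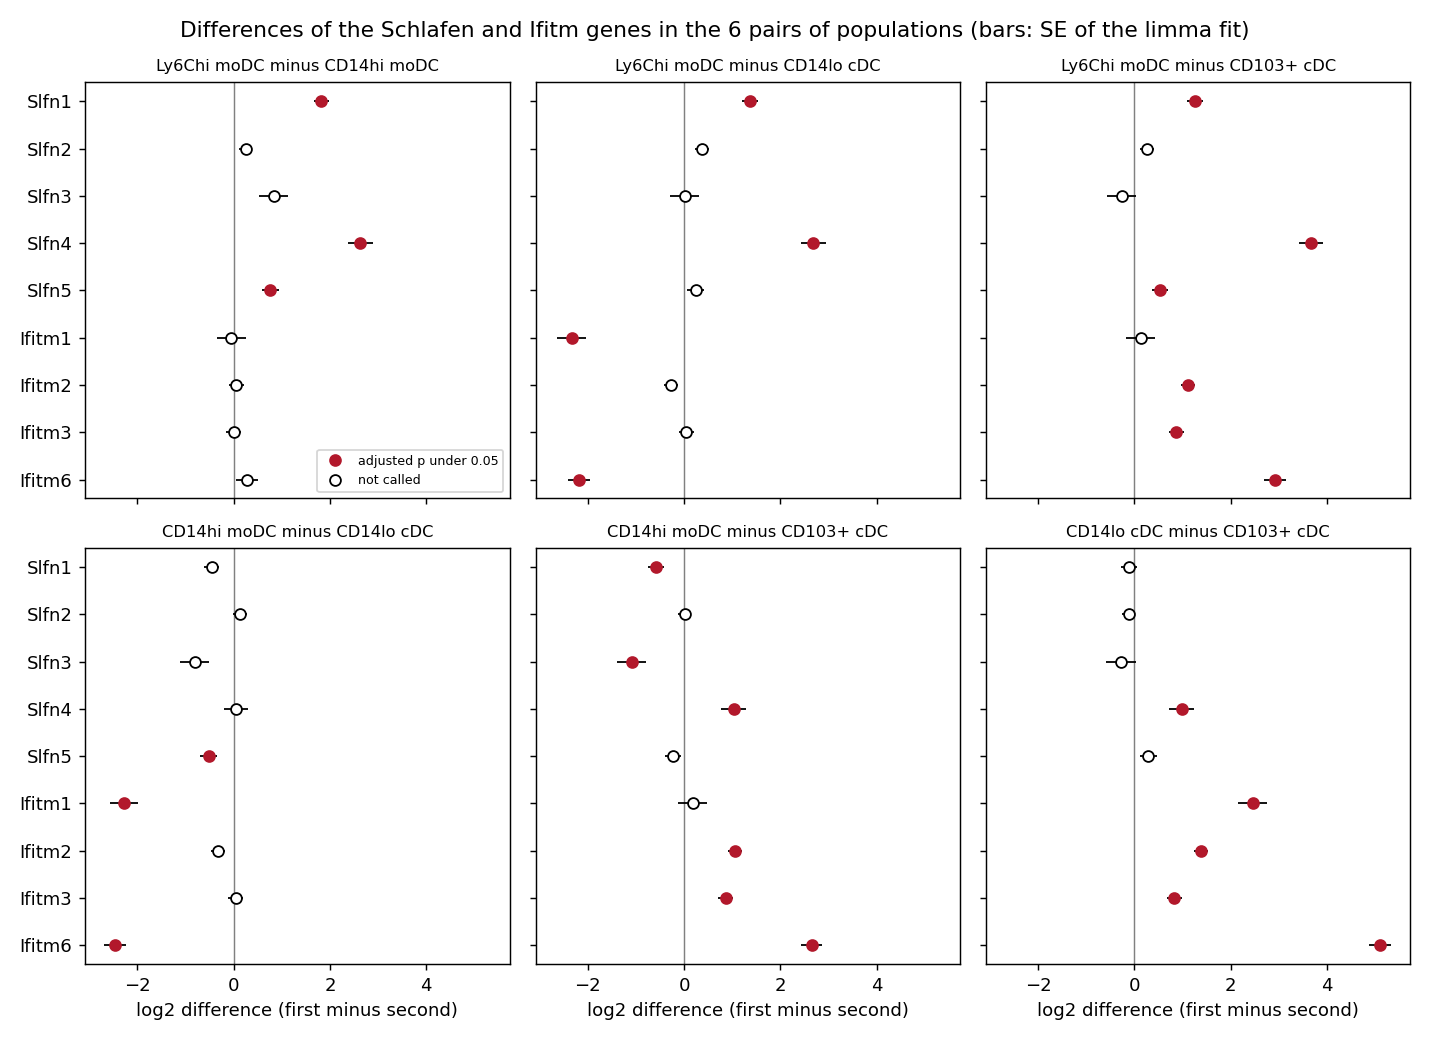
Points are log2 differences (first population minus second) of the 9 genes in each of the 6 pairs, with bars of 1 SE from limma, and red points passed an adjusted p under 0.05. The widest is Ifitm6 between CD14lo cDC and CD103+ cDC, at 5.11, and Slfn2 has no red point.

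The populations were next compared by lineage. Taking the mean of both moDC populations minus the mean of both cDC populations, 5 of 9 genes were called, 4 higher and 1 lower in moDC, beside 41.5% of all genes (20.7% higher, 20.8% lower). Slfn4 (1.86 ± 0.18), Slfn1 (0.39 ± 0.12), Ifitm2 (0.39 ± 0.11) and Ifitm3 (0.45 ± 0.11) were higher in moDC and Ifitm1 (-1.08 ± 0.21) was lower. In 0 of the 9 genes did all 6 moDC arrays lie apart from all 6 cDC arrays, against 11.7% of all genes. Ifitm6 had its highest and its lowest population on the cDC side, and its difference was 0.23 ± 0.16 (adjusted p = 0.27). It was 0.56 and called with the smaller added constant and -0.18 and not called with the larger. For pairs, the arrays of 4, 5, 6, 4, 6 and 5 of the 9 genes lay apart in Ly6Chi moDC against CD14hi moDC, CD14lo cDC and CD103+ cDC, CD14hi moDC against CD14lo cDC and CD103+ cDC, and CD14lo cDC against CD103+ cDC. The same held for 36%, 39.5%, 53.3%, 32.5%, 45.8% and 39.2% of all genes, in that order.

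Ranked by the log2 range of their 4 population means, the genes ran from Ifitm6 at 5.11 through Slfn4 at 3.67, Ifitm1 at 2.46, Slfn1 at 1.82, Ifitm2 at 1.38, Slfn3 at 1.09, Ifitm3 at 0.87 and Slfn5 at 0.76 to Slfn2 at 0.38. The median range of all genes tested was 0.62. A wider range than that of Ifitm6 was found in 0.604% of genes, than that of Slfn4 in 2.34%, than that of Ifitm1 in 6.23%, than that of Ifitm2 in 18%, than that of Ifitm3 in 34.5% and than that of Slfn2 in 74.7%. All 4 Ifitm genes and the Schlafen genes other than Slfn2 had a wider range than the median gene. The ranges of Ifitm6 and Slfn3 rest on populations not above the array median and moved with the added constant. The difference that sets the range of Slfn3 was -1.59 with the smaller and -0.53 with the larger constant, so its place between Ifitm2 and Ifitm3 is not fixed. The median range was not recomputed with these constants, so the place of Slfn3 above the median gene is not fixed either.

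Other genes of the families, from a list of 9 of which 4 were tested, did not all follow their neighbours. Slfn8, a long Schlafen gene, averaged 2989 ± 281 in Ly6Chi moDC, 2088 ± 146 in CD14hi moDC, 2222 ± 397 in CD14lo cDC and 928 ± 306 in CD103+ cDC (SD, n = 3). It was higher than in CD103+ cDC by 3.20-fold in Ly6Chi moDC (adjusted p = 5.7e-07), 2.25-fold in CD14hi moDC (adjusted p = 6.5e-05) and 2.37-fold in CD14lo cDC (adjusted p = 5.2e-05). Slfn9 averaged 710 ± 109 in Ly6Chi moDC and 651 ± 26.6 in CD14hi moDC against 394 ± 22.8 in CD14lo cDC and 411 ± 59.7 in CD103+ cDC. It was called higher in each moDC population than in each cDC population, by 1.53-fold to 1.70-fold (adjusted p up to 0.0099). A second Slfn9 probe set, for which no fit is given, averaged 478 ± 60.9 in Ly6Chi moDC, 301 ± 47.8 in CD14hi moDC, 233 ± 26.8 in CD14lo cDC and 253 ± 102 in CD103+ cDC. Both moDC means were again above both cDC means, but CD14hi moDC was nearer to the cDC populations than to Ly6Chi moDC. Slfn10-ps was 1.90-fold higher in Ly6Chi moDC than in CD14lo cDC (adjusted p = 0.032), and Ifitm5, best known from bone, was 1.86-fold lower in Ly6Chi moDC than in CD14lo cDC (adjusted p = 0.027). Slfnl1, Ifitm7 and Ifitm10 did not pass the filter on low signals.

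Because both families respond to interferon, 37 other interferon-stimulated genes were listed, of which 35 were tested. In Ly6Chi moDC against CD14hi moDC 24 were higher and 0 lower, with a median log2 difference of 0.70 over the list, and the leading genes were the exonuclease gene Isg20 (2.62-fold), the GTPase gene Ifi47 (2.46-fold), Ifi204 (2.40-fold) and the RNA sensor gene Ddx58 (2.23-fold). Against CD14lo cDC 20 were higher and 0 lower, with a median of 0.51, led by Cmpk2 (2.63-fold), Ifi204 (2.49-fold) and the chemokine gene Cxcl10 (2.43-fold). Against CD103+ cDC 26 were higher and 1 lower, with a median of 1.08, led by Rtp4 (9.94-fold) and the RNA-degradation gene Oas2 (7.52-fold). Medians over all genes tested in these 3 pairs were -0.01, -0.01 and 0.02. Of all genes tested, 6.82%, 11.2% and 24.3% were called higher in Ly6Chi moDC in these pairs, and 11.4%, 14% and 23.2% lower.

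In CD14hi moDC against CD14lo cDC 3 genes of the list were higher and 6 lower, with a median of -0.25. Here Cxcl10 (1.82-fold) and Oasl1 (1.71-fold) were higher while Isg20 (2.71-fold) and Ifi47 (1.74-fold) were lower in CD14hi moDC. Against CD103+ cDC, 16 were higher and 3 lower in CD14hi moDC (median 0.31), and 16 higher and 1 lower in CD14lo cDC (median 0.44). Of all genes tested, 9.24%, 20.3% and 15.3% were called higher in these pairs, in that order, and 6.95%, 16.9% and 13.4% lower. The highest level of Slfn1 and Slfn4 was in the population with the most genes of this list called higher. Ifitm1 and Ifitm6 peaked in CD14lo cDC, where 0 genes of the list were called higher than in Ly6Chi moDC. The lowest level of Slfn4, Ifitm2, Ifitm3 and Ifitm6 was in CD103+ cDC, and most called genes of the list were lower there than in each other population. Slfn1 was lowest in CD14hi moDC instead, with CD103+ cDC second to Ly6Chi moDC. The part of interferon in the Schlafen and Ifitm differences was not tested. Slfn2 was called in no pair.

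**Figure D4:**
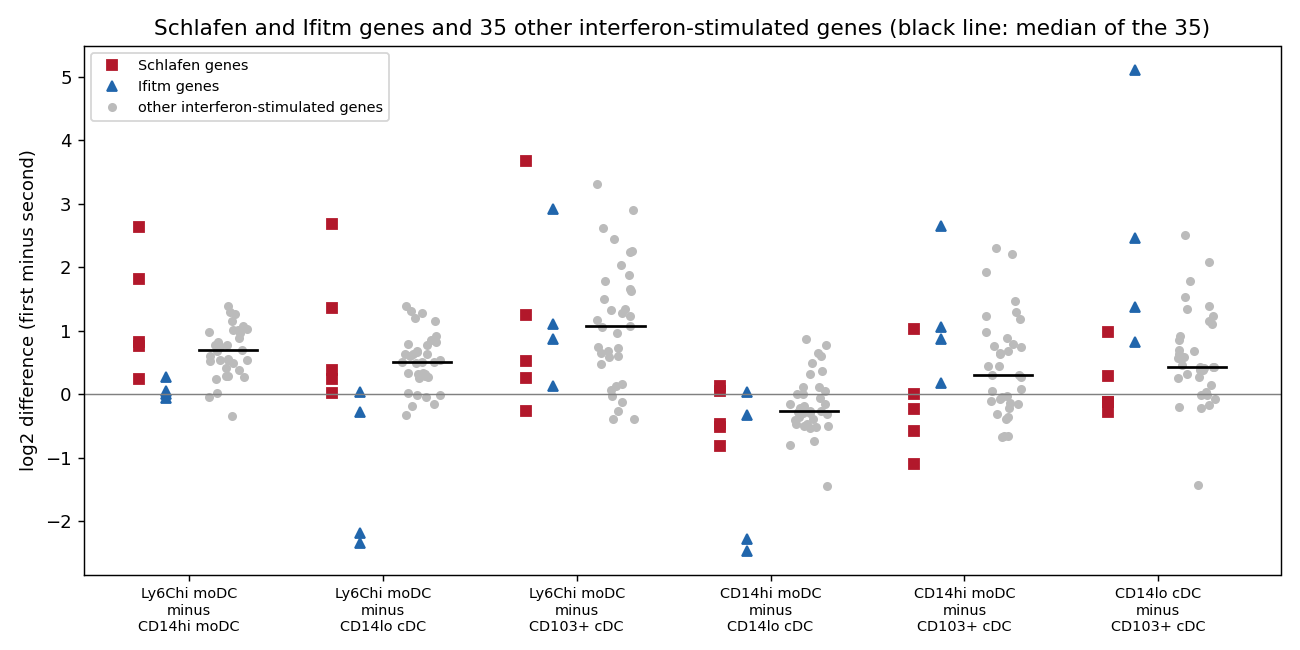
For each of the 6 pairs, along the horizontal axis, squares and triangles are the log2 differences (first population minus second) of the 9 Schlafen and Ifitm genes, and grey points those of 35 other interferon-stimulated genes with a black line at their median. The 35 genes have medians of 0.70, 0.51 and 1.08 in the pairs that begin with Ly6Chi moDC, and Ifitm1 and Ifitm6 lie below 0 in the pair of Ly6Chi moDC and CD14lo cDC. In every pair that ends with CD103+ cDC, Ifitm2, Ifitm3, Ifitm6 and the median of the 35 genes lie above 0.

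Of 15 listed interferon receptor and signalling genes, 13 were tested, and the balance of directions differed between pairs. Between Ly6Chi moDC and CD14hi moDC 2 were higher and 1 lower in Ly6Chi moDC, including the transcription factor gene Irf9 (1.65-fold higher). Between Ly6Chi moDC and CD14lo cDC 1 was higher, the receptor gene Ifnar2 (1.42-fold), and 2 were lower, the kinase genes Jak2 (2.40-fold) and Tyk2 (1.76-fold). Between Ly6Chi moDC and CD103+ cDC 3 were higher and 5 lower, led by Irf8, which directs the development of CD103+ dendritic cells, at 4.44-fold lower. In CD14hi moDC 0 were higher and 4 lower than in CD14lo cDC, and 1 was higher and 7 lower than in CD103+ cDC. In CD14lo cDC 2 were higher and 4 lower than in CD103+ cDC. Over all genes tested, 18.2%, 25.2%, 47.5%, 16.2%, 37.2% and 28.7% were called in these pairs, in the order given. By direction, 6.82%, 11.2%, 24.3%, 9.24%, 20.3% and 15.3% were called higher, and 11.4%, 14%, 23.2%, 6.95%, 16.9% and 13.4% lower. Of the interferon genes listed, Ifnb1 and Ifng did not pass the filter, and Ifnb1 averaged 49.6 in Ly6Chi moDC, 208 in CD14hi moDC, 25.5 in CD14lo cDC and 13.7 in CD103+ cDC.

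Modifiers and partners of the Ifitm3 protein were listed as well, and all 5 genes were tested. Nedd4, the ubiquitin ligase that marks IFITM3 for turnover in human and mouse cells, averaged 63.6 ± 14.3 in Ly6Chi moDC, 454 ± 89.9 in CD14hi moDC, 584 ± 114 in CD14lo cDC and 183 ± 12.6 in CD103+ cDC (SD, n = 3). No Ly6Chi moDC array exceeded its array median for Nedd4, so no fold is given. It was called lower in Ly6Chi moDC than in CD14hi moDC (adjusted p = 3.5e-07), CD14lo cDC (adjusted p = 3.2e-08) and CD103+ cDC (adjusted p = 0.00031). The methyltransferase gene Setd7 was 1.61-fold lower in Ly6Chi moDC than in CD14lo cDC (adjusted p = 0.036) and 1.71-fold lower than in CD103+ cDC (adjusted p = 0.0097). The palmitoyltransferase gene Zdhhc20, the protease gene Zmpste24 and Vapa were called in no comparison.

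Genes most like each member were found by the root mean square difference of their log2 means over the 4 populations, each gene centred on its own mean, among 10920 other genes. Nearest to Slfn4 were Ldhb (0.20), Cd177 (0.24), a surface protein of neutrophils, and Trem1 (0.27), a receptor on monocytes and neutrophils. Nearest to Slfn1 were 1600014C10Rik (0.063), Flt1 (0.14), a receptor for vascular endothelial growth factor, and Cdh5 (0.19). Nearest to Ifitm6 was Clec10a (0.20), a C-type lectin gene of CD11b+ dendritic cells and macrophages, followed at a distance by Ddr1 (0.51) and Cd209d (0.57), and nearest to Ifitm1 were S1pr5 (0.19), Cyp7b1 (0.22) and Krt80 (0.29). Bcas1 (0.037), Casp1 (0.052) and Plekhg3 (0.073) lay nearest to Ifitm2, and Pld4 (0.023), Mycn (0.027) and Rpp14 (0.029) nearest to Ifitm3. For the less variable members, the first neighbours were Srebf1 for Slfn5 (0.017), Mndal for Slfn3 (0.060) and Cfap20 for Slfn2 (0.0017). Several of these genes were not above background in some populations. S1pr5 and Cyp7b1 outside CD14lo cDC, and Cd177 and Cdh5 outside Ly6Chi moDC, had population means below every array median of the same population. So did Ldhb, Trem1, Mycn, Ddr1 and Cd209d in CD103+ cDC and Flt1 in CD14hi moDC. The distances of all these genes rest in part on such signals. S1pr5, Cyp7b1, Cd177 and Cdh5 passed the filter through their high population. With only 4 populations, and genes of little variation close to each other by construction, these distances are descriptions.

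Among the 9 genes themselves, Ifitm2 and Ifitm3 were alike, with a distance of 0.20 that placed Ifitm3 at rank 109 of 10928 genes around Ifitm2. Slfn5 stood at rank 167 around Slfn1 with a distance of 0.45. Slfn4 and Slfn1 were both highest in Ly6Chi moDC, and Ifitm6 and Ifitm1 both in CD14lo cDC, but these pairs lay farther apart. Slfn4 was 0.88 from Slfn1 (rank 8272 around Slfn1), and Ifitm6 was 1.15 from Ifitm1 (rank 8136 around Ifitm1). Both ranks are counted around the gene with the narrower range, to which genes of little variation lie nearer. A rank around the wider gene can differ. Around Slfn4, Slfn5 stood at rank 1710 with a distance of 1.17, so Slfn1 ranked closer than that.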

How the data were processed

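Gene expression was measured on Affymetrix mouse genome arrays, 3 for each of 4 sorted populations. Per the labels' protocols, 50 ng of RNA was amplified and biotin labelled. The authors deposited 1 linear intensity per probe set and array, made with MAS5 per the submitters' processing notes. The MAS5 version and any detection calls were not stated there. As deposited, the 2% trimmed mean was 500.003 on all 12 arrays, and array medians ran from 72.4 to 109. All 12 arrays were used as deposited.

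Of 45101 probe sets, 64 controls were left out, and 34945 carried 1 symbol in the platform annotation, 932 several and 9160 none. To be kept, a probe set had to exceed its array median on at least 3 of 12 arrays (25138 did). The kept probe set with the highest mean stood for its gene, which gave 10929 genes. A pseudocount of 50.0003, 10% of the trimmed mean, was added before log2. Means of the 4 populations were fitted with limma 3.58.1 (lmFit, eBayes with intensity trend, R 4.3.3). The tests were two-sided moderated t tests, in which eBayes adds prior degrees of freedom to the 8 residual ones. All adjusted p values are limma's, with Benjamini-Hochberg adjustment over all genes tested, or over all kept probe sets where a second or shared probe set is described. The fit was tested on simulated data. Figures were drawn with matplotlib 3.10.9.

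Named genes are the 9 members, their 3 nearest genes by pattern, the sort genes and up to 4 called genes with the largest differences in each list and comparison. The members and lists were chosen with earlier results of these data known, so no list was tested as a set. The labels do not say whether a replicate number marks shared mice. As alternatives, arrays were quantile normalized or centred on their medians, the pseudocount was set to 2% or 40% of the trimmed mean, the filter was dropped or raised to the 75th percentile, probe sets of a gene were averaged or tested singly, the fit was limited to the arrays compared, run without the intensity trend or given a replicate block, and each array was left out once.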

Additional observations from a re-analysis of the deposited data

How the results depend on the processing

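Of 63 differences of the 9 genes (7 comparisons each), 32 were called. Under 23 alternatives, 28 of these kept their call throughout, 4 lost it under at least 1, and none of the 63 changed sign while called. The 4 were the differences of Slfn5 between CD14hi moDC and CD14lo cDC and between Ly6Chi moDC and CD103+ cDC, of Slfn1 between CD14hi moDC and CD103+ cDC, and of Slfn4 between CD14lo cDC and CD103+ cDC, and the last 3 lost it only where an array was left out. Another 10 differences became called under at least 1 alternative. With quantile normalization 5 of the 9 genes were called between Ly6Chi moDC and CD14hi moDC, in place of 3, by the addition of Slfn3 (1.00, adjusted p = 0.028) and Ifitm3 (0.24, adjusted p = 0.046). With each array centred on its median 5 were called between CD14hi moDC and CD14lo cDC, in place of 3, by the addition of Slfn1 (-0.56, adjusted p = 0.042) and Slfn3 (-0.91, adjusted p = 0.0496). Median centring moved the median difference of all genes to 0.21, 0.11 and 0.14 for Ly6Chi moDC minus CD14hi moDC, CD14lo cDC and CD103+ cDC, and to -0.11 for CD14hi moDC minus CD14lo cDC, and these members' values include that shift. Leaving out 1 array gave 3 to 4, 4 to 5 and 5 to 6 genes called for Ly6Chi moDC against the other populations in that order, 2 to 4 and 5 to 6 for CD14hi moDC against CD14lo cDC and CD103+ cDC, 4 to 5 for CD14lo cDC against CD103+ cDC, and 5 to 6 for moDC against cDC. The correlation of deviations between arrays of the same replicate number ran from -0.106 to 0.236, with 8 of 18 pairs over 0.1. Arrays of unlike number were not compared, so these values do not decide whether the numbers pair the samples. The main fit has no replicate block. With a replicate block, 2 of the 9 genes were called between CD14hi moDC and CD14lo cDC, without Slfn5 (adjusted p = 0.0525), and 3, 4, 6, 6, 5 and 5 in the other comparisons, as without it. The stricter filter left out Slfn3, and the fit to only the arrays compared gives no value for moDC against cDC. Signals near the array median limit what can be said of Slfn3 and of Ifitm6 in CD103+ cDC.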
